A study of Mus musculus with 88 samples.

Results

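The 10 genes described here encode receptors and effector proteins of natural killer (NK) cells and cytotoxic T cells, and they were followed in the whole blood of 88 female SNF1 mice. They comprise the receptor genes Ncr1, Klrb1c, Klrd1 and Klrk1, the cytotoxic granule genes Nkg7, Gzma, Gzmb and Prf1, the chemokine gene Ccl5 and the transcription factor gene Eomes. They were chosen by symbol out of 17097 genes that had a probe set of their own on the array, and each was read at its brightest such probe set. All 10 were measured, 8 of them by 1 probe set and 2 of them (Prf1 and Eomes) by 2 probe sets. SNF1 mice are the F1 offspring of SWR and NZB parents and develop lupus nephritis spontaneously as they age. The treated mice received a single intraperitoneal dose of pristane, an inflammatory mineral-oil component used to provoke autoimmunity, at 9 weeks of age, and blood was taken 2, 4, 8, 12 or 14 weeks later, with untreated mice of matching age beside each week. An 11th group consisted of untreated mice, 36 weeks old, that had been selected for heavy proteinuria and are called the spontaneous disease group. Each group held 8 mice with 1 array per mouse. The weeks 2 to 14 count from the injection whereas 36 is an age, and no healthy mice of that age were analysed here, so age and disease cannot be told apart in that group.

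NK cells are innate lymphocytes that weigh activating against inhibitory surface signals and kill stressed or infected cells without prior priming. Killing, in NK cells as in CD8 T cells, relies on granules that hold perforin, which opens the target membrane, and granzymes, the proteases that pass through and start cell death. Ncr1 and Klrb1c are the most NK-restricted of these genes, while the granule genes, Klrd1, Klrk1, Ccl5 and Eomes are also used by cytotoxic T cells. Their signals are given as log2 RMA values, on which a difference of 1 is a 2-fold change. Differences were tested with limma over all probe sets, and a gene passed at an adjusted p under 0.05. Levels of different probe sets are not comparable with each other, and precision is limited by there being 8 arrays in a group.

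Array medians lay between 3.78 and 4.01 and the correlation between any pair of arrays between 0.900 and 0.994. Within 9 of the 11 groups the array numbered 8 was the least like its group, and the labels name no processing batch. The array of pristane week 4 replicate 1 stood apart in its interferon response (score 6.61, group mean 9.10). This score lay within the range of the untreated mice of week 4 (6.24 to 7.02). The same array had the highest signal of its group for 7 of the 10 genes. Without it the week 4 change of Klrd1 went from -0.54 to -0.80 and that of Ccl5 from -0.71 to -0.90, and those of Klrk1, Nkg7, Gzma, Gzmb, Prf1 and Eomes shifted by 0.03 to 0.17, none of which passed with or without it. The values of Ncr1 and Klrb1c without it stand with those genes.

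Pristane-treated mice had lower mean signals than untreated mice in 8 or 9 of the 10 NK receptor and cytotoxic genes at weeks 2, 4, 8 and 14 and in 2 of them at week 12, and 1 to 4 genes passed as lower in each of the former weeks. Averaged over the 5 weeks, 8 of the 10 genes were lower (13.7% of all 17097 genes were lower in this comparison) and 0 were higher (12.8% of all genes). The exceptions were Gzmb and Prf1. The largest of these mean falls was that of Ncr1, which was 1.95-fold lower (95% confidence interval 1.62 to 2.35, adjusted p = 2.38e-08). The falls of the other 7 genes ran from 1.30-fold for Eomes to 1.60-fold for Klrd1. In whole blood, fewer cells of a type and less RNA per cell cannot be told apart.

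**Figure D1:**
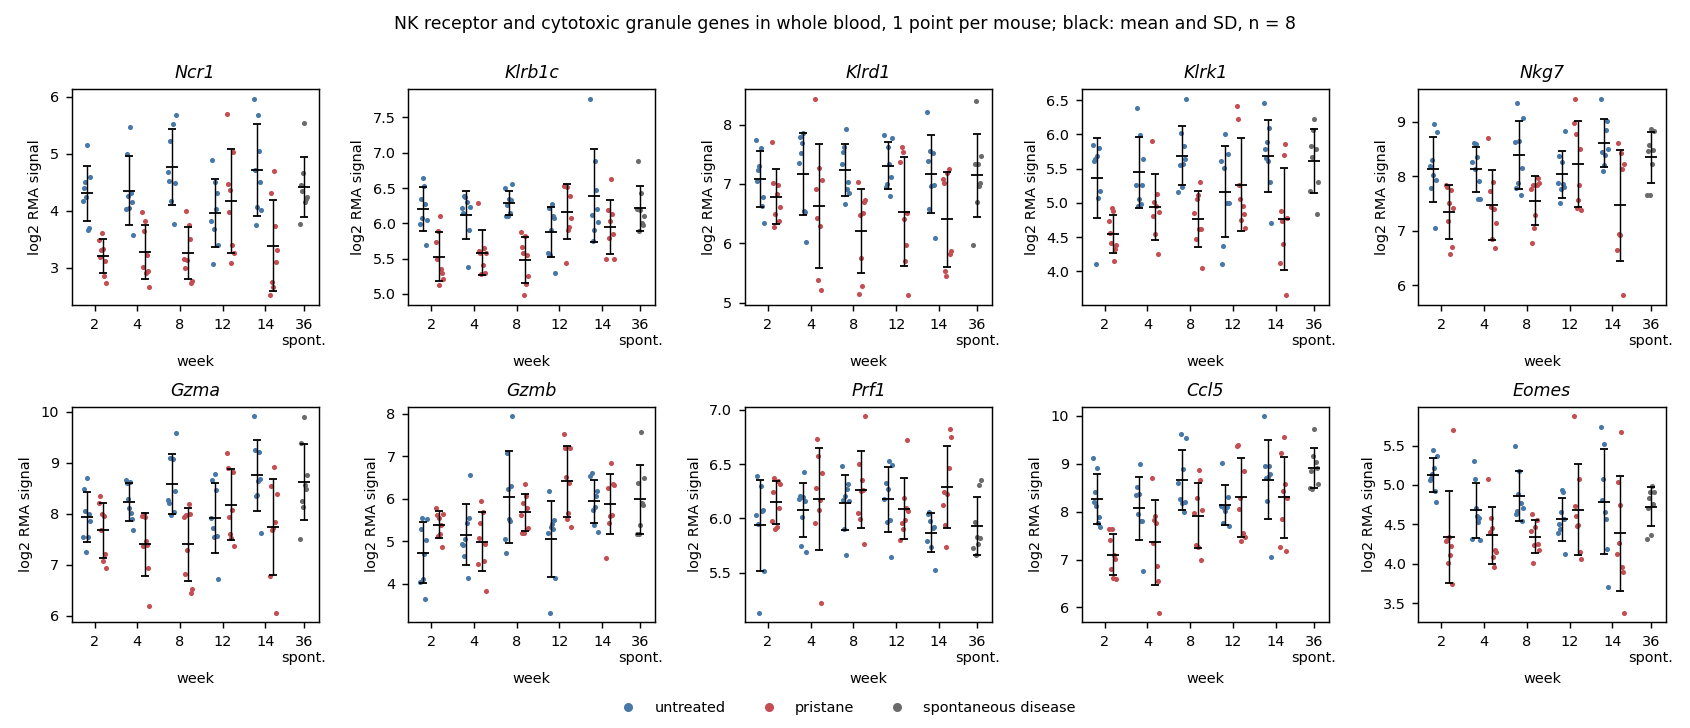
Log2 RMA signal of each gene (vertical axis, a scale of its own per panel) in every mouse by week, with untreated mice in blue, pristane-treated mice in red and spontaneous disease in grey; weeks 2 to 14 count from the injection and 36 is an age. Black lines give the mean and SD of 8 mice, and for Ncr1 the pristane means of weeks 2, 4, 8 and 14 lay between 3.21 and 3.39, below all untreated means (3.97 to 4.76).

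At single weeks, 4 genes passed as lower at week 2 (1.29% of all genes), 1 at week 4 (0.801%), 4 at week 8 (0.778%), 0 at week 12 (1.06%) and 4 at week 14 (9.72%). Genes that passed as higher were Gzmb at week 12 (2.70% of all genes were higher) and Prf1 at week 14 (12.7%), and 0 of the 10 did so at weeks 2 (2.29%), 4 (2.18%) and 8 (1.85%). The background at week 14 was thus far higher than in the other weeks. The median change over the 10 genes was -0.73, -0.54, -0.83, 0.18 and -0.60 at weeks 2, 4, 8, 12 and 14, where the median over all genes lay between -0.02 and 0.12. Changes were negative in 8, 9, 9, 2 and 9 of the 10 genes. With the study's added criterion of a change over 2-fold, 2 genes passed as lower at week 2 (Ncr1 and Ccl5; 0.0936% of all genes), 1 at week 4 (Ncr1; 0.117%), 2 at week 8 (Ncr1 and Gzma; 0.170%) and 3 at week 14 (Ncr1, Nkg7 and Gzma; 1.93%), and Gzmb alone as higher at week 12 (1.25%). A test of whether the effect differed between weeks passed for 2 of the 10 genes, Ncr1 and Klrb1c (3.16% of all genes). Leaving out 1 array moved the number of genes passing at week 2 to 1 (without untreated replicate 5) or 2 (without pristane replicate 3 or 5), at week 8 to 2 (without pristane replicates 2, 7 or 8 or untreated replicates 3, 5 or 8) and at week 14 to 3 (without pristane replicate 7 or untreated replicate 1). With each array centred on its T cell markers instead, which shifted the median over all genes in the mean of the weeks to 0.27, 5 genes remained lower in that mean (Ncr1, Klrd1, Klrk1, Nkg7 and Gzma) and 2 passed as higher (Gzmb and Prf1), while 0 passed at weeks 2 and 4. This centring left few lower calls among all genes. Their share of the calls was 3.97% in that mean, 0.962% at week 2 and 0.8% at week 4. As deposited it was 51.5%, 36.1% and 26.9%.

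**Figure D2:**
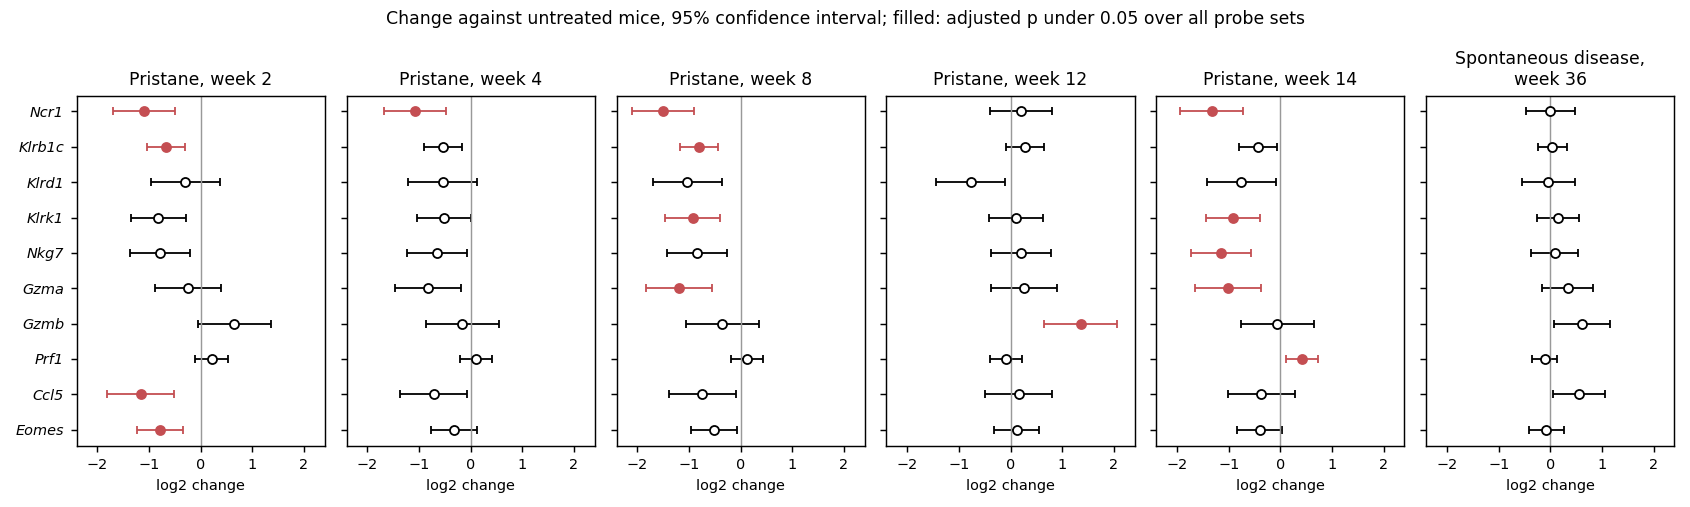
Log2 change of each gene in pristane-treated against untreated mice at each week, and in spontaneous disease against the mean of all untreated groups, with 95% confidence intervals from limma; filled red points passed at an adjusted p under 0.05. Points lay left of 0 for most genes at weeks 2, 4, 8 and 14, and at week 12 Gzmb alone passed, at 1.36.

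Because these genes moved together, the sequence just upstream of their starts is shown for those that the results turn on. RefSeq promoter windows of the GRCm38.p6 reference, which is not the sequence of SNF1 mice, were held for 8 of the 10 genes (all but Klrd1 and Ccl5). The 250 bases before the start were searched on both strands for 4 short motifs, the core TGTGGT bound by RUNX factors, the T-box core TCACACC, the STAT core TTCNNNGAA and the ETS site CCGGAAGT. The RUNX core was found in 7 of the 8 genes, all but Eomes, and in 15.9% of 27025 genes. The T-box core was found in 1 of the 8, Nkg7 (3.84% of all genes), the STAT core also in Nkg7 alone (8.13%), and the ETS site in 0 (3.23%). No match of a motif overlapped one of another motif. The windows below belong to Ncr1, which fell in most weeks, to the granule genes Nkg7 and Gzma, which fell at week 14, and to Gzmb, which did not, and the capitals mark the RUNX core, chosen for display because most windows held it.
Ncr1, chr7:4337465-4337714, plus strand: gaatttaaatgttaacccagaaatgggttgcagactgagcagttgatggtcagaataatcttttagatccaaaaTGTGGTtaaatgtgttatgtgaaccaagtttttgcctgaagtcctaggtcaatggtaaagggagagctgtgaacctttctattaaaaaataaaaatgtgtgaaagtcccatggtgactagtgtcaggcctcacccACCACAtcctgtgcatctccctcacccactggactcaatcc
Nkg7, chr7:43436888-43437137, plus strand: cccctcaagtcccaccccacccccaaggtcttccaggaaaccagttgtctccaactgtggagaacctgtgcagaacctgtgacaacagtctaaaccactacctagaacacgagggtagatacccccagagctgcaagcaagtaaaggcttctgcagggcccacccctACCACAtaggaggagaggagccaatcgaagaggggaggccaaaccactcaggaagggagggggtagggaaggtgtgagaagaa
Gzma, chr13:113100982-113101231, minus strand: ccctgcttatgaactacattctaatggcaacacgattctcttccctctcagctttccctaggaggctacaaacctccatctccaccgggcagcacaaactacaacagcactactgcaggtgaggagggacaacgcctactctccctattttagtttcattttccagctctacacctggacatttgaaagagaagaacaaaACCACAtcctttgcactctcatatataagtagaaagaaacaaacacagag
Gzmb, chr14:56262335-56262584, minus strand: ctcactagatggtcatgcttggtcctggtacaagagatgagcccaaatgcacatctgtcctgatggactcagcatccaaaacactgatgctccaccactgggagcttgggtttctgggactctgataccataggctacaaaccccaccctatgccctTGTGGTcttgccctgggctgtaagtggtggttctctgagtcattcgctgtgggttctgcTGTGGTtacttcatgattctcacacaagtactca
A match of this kind describes the letters of a window and was not tested against binding or against the signals.

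Ncr1 (probe set 1422089_PM_at) encodes NKp46, an activating receptor found on almost all NK cells. In untreated mice its signal ran from 3.67 to 5.16 at week 2 (median 4.32), and in pristane-treated mice from 2.73 to 3.62 (median 3.25). All 8 pristane arrays lay below all 8 untreated arrays, a separation seen in 0.170% of all genes at that week. The difference was 2.14-fold (1.41 to 3.26, adjusted p = 0.0247). At week 4 the signal ran from 3.58 to 5.47 in untreated (median 4.20) and from 2.67 to 3.98 in pristane-treated mice (median 3.12), where the groups overlapped in a narrow band, and it was 2.11-fold lower (1.39 to 3.21, adjusted p = 0.0339). At week 8 it ran from 3.78 to 5.69 in untreated (median 4.60) and from 2.73 to 4.00 in pristane-treated mice (median 3.14). Of the 8 pristane mice, 7 lay below every untreated mouse, and the difference was the largest of the 5 weeks, at 2.84-fold (1.87 to 4.32, adjusted p = 0.000761).

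At week 12 Ncr1 ran from 3.07 to 4.90 in untreated (median 3.93) and from 3.08 to 5.70 in pristane-treated mice (median 4.18). The groups overlapped widely there, with 2 of the 8 pristane mice above all untreated mice, and the change of 0.20 did not pass (adjusted p = 0.875). At week 14 the untreated mice ran from 3.75 to 5.96 (median 4.61) and the pristane-treated mice from 2.53 to 4.69 (median 3.21). Of the latter, 6 lay below all untreated mice, and the gene was 2.51-fold lower (1.65 to 3.82, adjusted p = 0.000705). Ncr1 was the only one of the 10 genes to pass as lower in at least 4 of the 5 weeks, which 22 genes (0.129% of all) did. The weekly effects differed from each other (moderated F, adjusted p = 0.0468), and the effect of week 14 was 1.53 below that of week 12 on the log2 scale (adjusted p = 0.0367; 1.28% of all genes passed in this direction and 0.877% in the other). Between the effects of weeks 14 and 2, 0 of the 10 genes differed by limma (2.67% and 4.19% of all genes), and 0 did at an unadjusted p under 0.05. The mean signal of Ncr1 (3.98) was close to the median of all deposited values (3.89), so it is a dim probe set. The F test was lost after median centring (adjusted p = 0.0674), T cell centring (0.0885) and quantile normalization (0.0626), with the erythroid score (0.0861) and with array weights (0.0821), and the difference between weeks 14 and 12 was lost after T cell centring (0.149) and quantile normalization (0.0501), with the erythroid score (0.221), the interquartile range (0.0596) and array weights (0.0544), and with the compared groups alone (0.128). Left out 1 array at a time, the calls at weeks 8 and 14 held in 16 of 16 refits. The week 2 call was lost without untreated replicate 5 (change -0.98, adjusted p = 0.0719). That of week 4 was lost in 7 of 16 refits, without pristane replicates 2, 5, 6, 7 or 8 or untreated replicates 2 or 5, with adjusted p up to 0.113 and changes from -1.19 to -0.92 over all refits.

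Klrb1c (1449570_PM_at), the gene of the NK1.1 antigen that marks NK cells in several mouse strains, followed a similar course with smaller changes. At week 2 it ran from 5.69 to 6.64 in untreated (median 6.17) and from 5.13 to 6.10 in pristane-treated mice (median 5.42), and was 1.59-fold lower (1.24 to 2.05, adjusted p = 0.0232). At week 8 it ran from 6.11 to 6.55 in untreated (median 6.30) and from 4.98 to 5.88 in pristane-treated mice (median 5.57). The week 8 groups did not overlap (0.140% of all genes separated this way), and the gene was 1.75-fold lower (1.36 to 2.26, adjusted p = 0.00402), a call that held in 16 of 16 refits without 1 array. The changes at weeks 4, 12 and 14 were -0.53, 0.29 and -0.44 and did not pass. At week 4, without the array of pristane replicate 1, Klrb1c was lower as well (-0.63, adjusted p = 0.0400) beside Ncr1 (-1.18, adjusted p = 0.0173), which made 2 genes lower at that week. The weekly effects on Klrb1c differed from each other (adjusted p = 0.0310), a call that was lost after median centring (adjusted p = 0.0604) and after centring on T cell markers (0.204). The week 2 call was lost without pristane replicate 4 or untreated replicates 4 or 5 (adjusted p up to 0.0628).

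Klrk1 (1450495_PM_a_at) encodes NKG2D, the activating receptor for stress-induced ligands on NK cells and CD8 T cells. At week 8 it ran from 5.17 to 6.52 in untreated (median 5.61) and from 4.06 to 5.31 in pristane-treated mice (median 4.74), with 7 of 8 pristane arrays below all untreated arrays. It was 1.91-fold lower (1.32 to 2.74, adjusted p = 0.0374). At week 14 it ran from 4.70 to 6.46 in untreated (median 5.72) and from 3.65 to 5.86 in pristane-treated mice (median 4.76). The groups overlapped more than at week 8, yet the fall was of like size, 1.89-fold (1.31 to 2.73, adjusted p = 0.00769). This call held in 16 of 16 refits, whereas that of week 8 was lost in 9 of 16, without pristane replicates 2, 5, 7 or 8 or untreated replicates 3, 5, 6, 7 or 8 (adjusted p up to 0.123). The changes at weeks 2 and 4, of -0.82 (adjusted p = 0.0676) and -0.51, did not pass.

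Klrd1 (1460245_PM_at) encodes CD94, the partner chain of the NKG2 receptors that read the non-classical MHC molecule Qa-1. It was the only one of the 10 genes whose change was negative in all 5 weeks, including week 12 (-0.77), and it passed in none of them. Its weekly changes ran from -0.30 at week 2 to -1.03 at week 8 (adjusted p = 0.0930). The pristane groups were widely spread, from 5.15 to 7.04 at week 8 (median 6.50) and from 5.46 to 7.25 at week 14 (median 6.44), where untreated mice ran from 6.66 to 7.92 (median 7.19) and from 6.09 to 8.22 (median 7.18). The 5 pristane groups had the 5 lowest means of all 11 groups, and the mean of the 5 weekly changes was 1.60-fold (1.30 to 1.97, adjusted p = 0.000270).

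Among the granule genes, Nkg7 (1450753_PM_at), whose product sits in the granule membrane and aids their release, was lower at week 14. It ran from 8.10 to 9.42 in untreated (median 8.48) and from 5.82 to 8.61 in pristane-treated mice (median 7.54). The pristane mice were far more spread out, 4 of 8 lying below all untreated mice, and the difference was 2.22-fold (1.48 to 3.34, adjusted p = 0.00254, held in 16 of 16 refits). At weeks 2, 4 and 8 it was lower by 1.57-fold to 1.80-fold without passing (adjusted p from 0.129 to 0.320).

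Gzma (1417898_PM_a_at) encodes granzyme A, a tryptase-like granule protease of NK and T cells. At week 8 it ran from 7.97 to 9.58 in untreated (median 8.35) and from 6.45 to 8.18 in pristane-treated mice (median 7.62), and was 2.27-fold lower (1.46 to 3.54, adjusted p = 0.0255). At week 14 it ran from 7.63 to 9.90 in untreated (median 8.66) and from 6.06 to 8.91 in pristane-treated mice (median 7.78), and was 2.02-fold lower (1.30 to 3.14, adjusted p = 0.0165). In both weeks the upper part of the pristane group lay within the untreated range. At week 2 Gzma differed little between the groups, with a change of -0.25 (-0.89 to 0.38 on the log2 scale). The week 8 call was lost in 6 of 16 refits, without pristane replicates 2, 7 or 8 or untreated replicates 3, 5 or 8 (adjusted p up to 0.0893), and that of week 14 in 3 of 16, without pristane replicates 1 or 7 or untreated replicate 1 (up to 0.0810).

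Gzmb (1419060_PM_at), the gene of granzyme B, a protease that activates caspases in target cells, was higher at week 12. There it ran from 3.32 to 6.18 in untreated (median 5.31) and from 5.33 to 7.51 in pristane-treated mice (median 6.44), with 5 of 8 pristane mice above all untreated mice. It was 2.57-fold higher (1.58 to 4.20, adjusted p = 0.0150), the only change of the 10 genes to pass at that week. This call was lost without untreated replicate 3, the lowest array of its group (1.12, adjusted p = 0.0752). The changes at weeks 2, 4, 8 and 14 were 0.65, -0.17, -0.36 and -0.06 and did not pass, and the differences between weekly effects did not pass either (adjusted p = 0.0956). The untreated groups differed between weeks for 1 of the 10 genes, Gzmb (adjusted p = 0.0186), a share near that of all genes (11.8%), and this call was lost with the erythroid score (0.145) or the interquartile range (0.131) as a covariate. The untreated means of Gzmb were 4.73 ± 0.73, 5.15 ± 0.72, 6.03 ± 1.08, 5.04 ± 0.90 and 5.93 ± 0.50 (SD, n = 8) at weeks 2, 4, 8, 12 and 14.

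The direction of Prf1, the perforin gene, depended on the probe set. The brighter probe set (1450335_PM_at) ran at week 14 from 5.53 to 6.05 in untreated (median 5.92) and from 5.74 to 6.82 in pristane-treated mice (median 6.24), with 6 of 8 pristane mice above all untreated mice. It was 1.34-fold higher (1.08 to 1.66, adjusted p = 0.0452). The other probe set (1451862_PM_a_at) ran from 4.72 to 6.33 in untreated (median 5.07) and from 3.30 to 5.46 in pristane-treated mice (median 4.71), and was lower by 0.67 on the log2 scale (adjusted p = 0.0236). Averaged over the 5 weeks the brighter probe set changed by 0.15 (adjusted p = 0.104) and the other one by -0.38 (adjusted p = 0.00249). Over the 88 arrays the signals of these probe sets were almost unrelated (r = 0.05, description only), and no direction is therefore given for perforin RNA. The rise at the brighter probe set was also lost in 9 of 16 refits (adjusted p up to 0.132), without pristane replicates 6, 7 or 8 or untreated replicates 1, 4, 5, 6, 7 or 8.

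**Figure D3:**
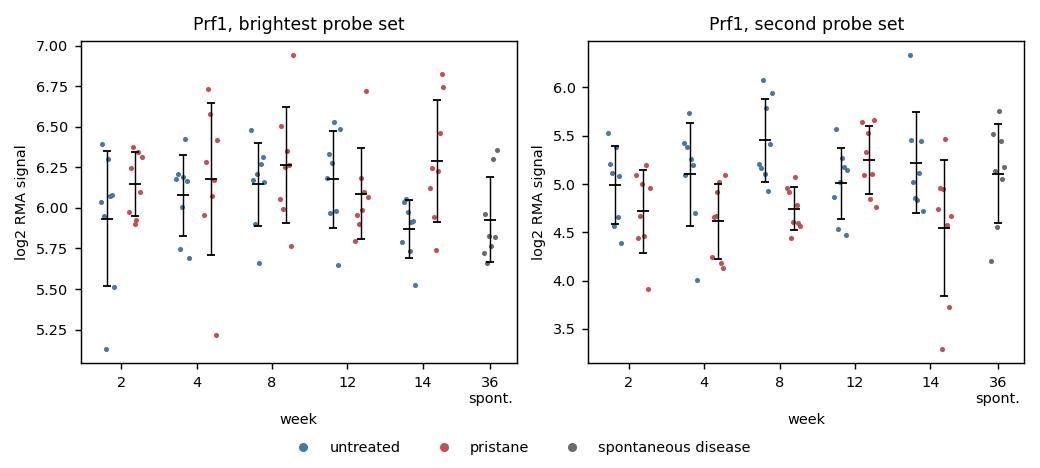
Log2 RMA signal of the brighter (left) and the other (right) probe set of Prf1 in every mouse by week (36 is an age), with the mean and SD of 8 mice in black. At week 14 the pristane mean was above the untreated mean on the left (6.29 against 5.87) and below it on the right (4.55 against 5.22).

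Ccl5 (1418126_PM_at), a chemokine released by cytotoxic lymphocytes that attracts T cells and monocytes, was lower at week 2. It ran from 7.68 to 9.12 in untreated (median 8.15) and from 6.59 to 7.64 in pristane-treated mice (median 7.06). These groups did not overlap, a separation seen in 0.170% of all genes at that week. The fall was 2.24-fold (1.43 to 3.51, adjusted p = 0.0281). The changes were -0.71, -0.74, 0.16 and -0.37 at weeks 4, 8, 12 and 14, none of which passed, and the test across weeks did not pass either (adjusted p = 0.349). The week 2 call was lost in 5 of 16 refits, without pristane replicates 3, 5 or 8 or untreated replicates 1 or 5 (adjusted p up to 0.0766).

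Eomes (1426001_PM_at) encodes a T-box transcription factor that NK cells need for maturation and effector CD8 T cells for memory. At week 2 it ran from 4.78 to 5.45 in untreated (median 5.11) and from 3.75 to 5.70 in pristane-treated mice (median 4.25). Of the pristane mice, 7 lay below every untreated mouse and the eighth above all of them, and the gene was 1.73-fold lower (1.27 to 2.34, adjusted p = 0.0273). This call was lost in 4 of 16 refits, without pristane replicates 3, 5 or 7 or untreated replicate 4 (adjusted p up to 0.0733). The other Eomes probe set (1435172_PM_at) changed by -0.45 at week 2 (adjusted p = 0.201), by -0.51 at week 14 (adjusted p = 0.0453) and by -0.32 over the mean of the weeks (adjusted p = 0.00251), where the brighter one changed by -0.79, -0.40 (adjusted p = 0.184) and -0.38 (adjusted p = 0.00203). The probe sets thus had the same sign and passed at different weeks.

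Ordered by mean, pristane groups were the 4 lowest of the 11 groups for Ncr1, Klrk1, Nkg7, Gzma and Eomes, the 5 lowest for Klrd1 and the 3 lowest for Klrb1c and Ccl5. For Gzmb the lowest group was untreated week 2 and for Prf1 untreated week 14. Of the 100 steps between neighbouring groups in these orders, 1 exceeded the pooled SD of the mice in its groups, that between pristane week 8 and untreated week 12 for Nkg7 (0.48), so neighbours in the order mostly did not differ beyond the spread between mice. For Ncr1 the means of the 4 lowest groups lay within 3.21 to 3.39, and the step to the next group was 0.58.

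Over the 88 arrays the genes other than Prf1 rose and fell together, with r above 0 in 35 of 36 pairs (from -0.04 for Klrd1 with Gzmb to 0.81 for Ncr1 with Gzma). The arrays share groups, blood composition and signal range, so these correlations are a description. Ncr1 had the highest median r with the other genes (0.71) and Prf1 the lowest (-0.17). On deviations from the group means, Ncr1 still correlated with Gzma at 0.73 and with Ccl5 at 0.77. The other Prf1 probe set had a median r of 0.49 with the remaining genes.

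**Figure D4:**
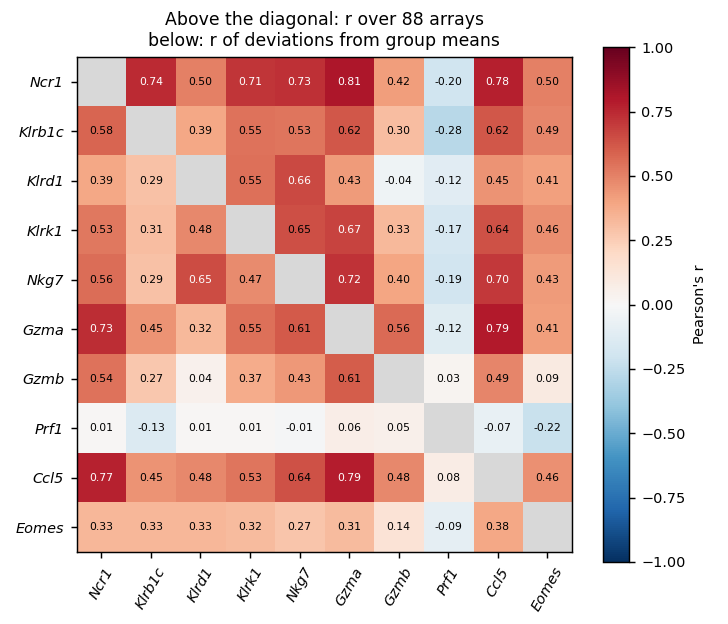
Pearson correlation between the genes over 88 arrays, above the diagonal from the signals and below it from deviations from the group means (colour scale from -1 to 1). Ncr1, Gzma and Ccl5 form the strongest block (0.78 to 0.81 above the diagonal), and the row of Prf1 lies near or below 0.

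Outside these 10, the genes whose signal was most like their mean over the 88 arrays, of 10622 candidates, were Tbx21 (r = 0.79), AW112010 (0.78), Il2rb (0.74), Klrg1 (0.70) and Nrarp (0.70). On deviations from the group means they were AW112010 (0.73), Tbx21 (0.71), Klrg1 (0.65), Ctsw (0.64) and Nrp1 (0.62). Averaged over the weeks, pristane-treated mice were lower in Tbx21, the gene of T-bet (-0.56, adjusted p = 2.99e-05), in Il2rb, a chain of the receptors for IL-2 and IL-15 (-0.62, adjusted p = 5.05e-05), in Nrarp (-0.57, adjusted p = 2.37e-05) and in AW112010 (-0.30, adjusted p = 0.0157). Klrg1, a receptor of mature NK and effector T cells, changed by -0.22 (adjusted p = 0.231) and Nrp1 by 0.04 (adjusted p = 0.825). The genes alike over the 88 arrays were chosen on arrays of both treatments. Their falls are therefore partly built into the choice and are a description.

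Of 95 further genes listed by role 82 were measured, of which 4, 1, 2, 0 and 7 were lower and 3, 6, 4, 10 and 8 higher at weeks 2, 4, 8, 12 and 14, and 11 were lower and 19 higher in the mean of the weeks. In that mean the shares were 13.4% lower and 23.2% higher, beside 13.7% and 12.8% of all genes, and at week 14 they were 8.54% and 9.76%, beside 9.72% and 12.7%. At weeks 2, 4, 8 and 12 the shares were 4.88%, 1.22%, 2.44% and 0% lower (1.29%, 0.801%, 0.778% and 1.06% of all genes) and 3.66%, 7.32%, 4.88% and 12.2% higher (2.29%, 2.18%, 1.85% and 2.70%). The share that was lower was thus near the background in the mean and at week 14. The median change of these 82 in that mean was 0.00, against 0.02 over all genes. Of 16 other NK receptor genes, 2 were lower and 2 higher in that mean, with a median change of -0.04. At weeks 2, 4, 8 and 12, 0 of the 16 were lower, and 1 was at week 14. Among them, the inhibitory receptor gene Klrc1 was lower (-0.55, adjusted p = 0.000416). The Fc receptor gene Fcgr3, which is also expressed by myeloid cells, was higher (0.76, adjusted p = 1.29e-08). Klrc1 was dim, with a mean signal of 2.95 where the median of all deposited values was 3.89, and of the single weeks it passed at week 14 alone. The adaptor genes Tyrobp (0.50, adjusted p = 1.40e-06) and Fcer1g (0.36, adjusted p = 0.000183), which myeloid cells use as well, were higher. Of the trafficking receptors, the fractalkine receptor gene Cx3cr1 was lower (-0.97, adjusted p = 1.83e-09) at weeks 2, 8 and 14, and the integrin gene Itgam, a marker of myeloid cells too, was higher (0.77, adjusted p = 1.04e-09) at weeks 4, 8 and 12. Which blood cells carried the falls, that of Cx3cr1 included, or the rises was not tested.

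Among transcription factors of this lineage, Tbx21 passed as lower at weeks 2 (-0.97), 4 (-0.88) and 8 (-0.90), and changed by 0.43 and -0.50 at weeks 12 and 14 without passing. Nfil3, which NK cell development requires and myeloid cells induce, was higher in all 5 weeks, by 1.02 to 1.49. Of 8 genes of granule transport, 2 were higher in the mean of the weeks and 0 lower (median change of the 8 genes 0.10). These were Rab27a, a small GTPase that docks granules, which was 0.97 to 1.08 higher at weeks 2 to 12, and Lyst, the lysosomal trafficking regulator, which was 0.75 to 1.35 higher at weeks 4 to 14. Neutrophil markers rose in the same weeks, and which blood cells carried the rises of Rab27a and Lyst was not tested. Among granule contents, the cathepsin gene Ctsw was lower (-0.50, adjusted p = 0.0179), and Ctsc, the protease that activates granzymes and neutrophil proteases, was higher (0.30, adjusted p = 3.02e-05). Of cytokine receptors and effectors, Il18rap (1.09, adjusted p = 4.19e-10) and Ccl3 (0.70, adjusted p = 0.000390) were higher and Xcl1 was lower (-0.34, adjusted p = 0.000596). Of the 9 measured ligands of NK receptors, Clec2i (-0.87, adjusted p = 3.37e-07) and Ulbp1 (-0.29, adjusted p = 0.00471) were lower. H2-D1 was higher (0.15, adjusted p = 0.0499), and the median change of the 9 genes was 0.01.

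Other blood cells changed at the same time, and their part in these results was not tested. Of 58 marker genes of blood cells and the interferon response, 57 had a mean above the median of all deposited values. Neutrophil markers passed as higher in 10 or 11 of 11 genes at each week, with median changes from 1.49 to 2.01, and 8 of 9 interferon response genes were higher at each week. Monocyte markers were higher in 1, 4, 2, 4 and 1 of 6 genes (median 0.95 at week 4 and 0.90 at week 12). At week 14, 6 of 6 platelet markers (median 1.19) and 4 of 6 erythroid markers (median 0.99) were higher, and 0 were so at the other weeks. T cell markers were lower in 0, 1, 0, 1 and 4 of 9 genes and B cell markers in 1, 3, 0, 2 and 4 of 7 at weeks 2, 4, 8, 12 and 14. Beside these marker counts, 1.29%, 0.801%, 0.778%, 1.06% and 9.72% of all genes were lower at those weeks. The shares that were higher were 2.29%, 2.18%, 1.85%, 2.70% and 12.7%, so the counts of week 14 stand beside a larger background. The CD8 genes Cd8a and Cd8b1 were both lower at week 12 (-1.33 and -0.98) and at week 14 (-0.87 and -0.88), so at week 12 they fell while Ncr1 and Gzma did not and Gzmb was higher. Over the 88 arrays the mean of the 10 genes correlated with the erythroid score at -0.56, the interferon score at -0.40, the neutrophil score at -0.37, the B cell score at 0.35, the monocyte score at 0.28, the CD8 score at 0.27, the T cell score at 0.24, the CD4 score at 0.16 and the platelet score at -0.07. On deviations from the group means these were -0.43, 0.05, 0.02, 0.04, 0.47, 0.41, 0.33, 0.24 and -0.07 in the same order, so those with the interferon, neutrophil and B cell scores were close to 0 within groups.

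**Figure D5:**
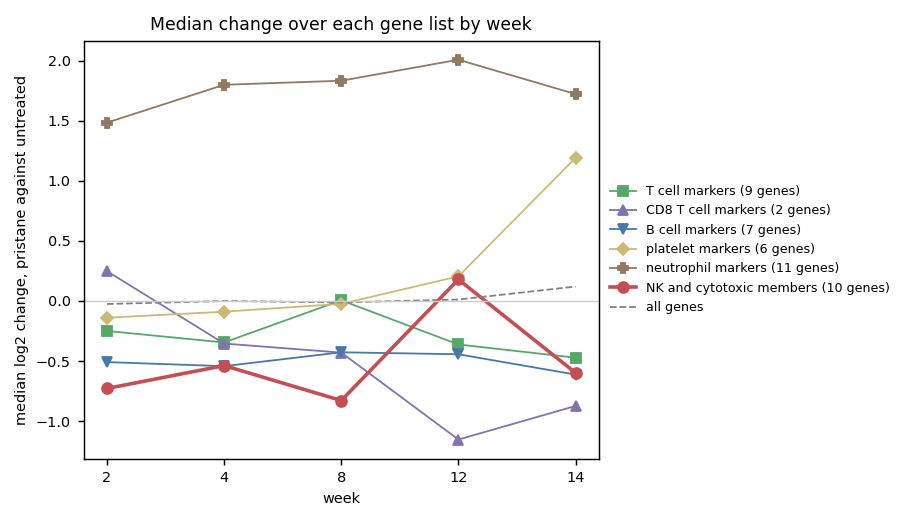
Median log2 change in pristane-treated against untreated mice over the 10 NK and cytotoxic genes (red), marker lists of other blood cells and all genes (dashed) at each week after injection. The red line lay below the T cell line at weeks 2, 4, 8 and 14 and above it at week 12 (0.18 against -0.36), where the CD8 line was lowest (-1.15).

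The calls at week 14 varied with the control group used. The untreated mice of week 14 had higher signals than those of week 12 in 8 of the 10 genes, with a median difference of 0.53, but 0 genes passed (0.0351% of all genes in each direction), and 4 did at an unadjusted p under 0.05. Between untreated mice of weeks 12 and 2, 0 genes passed as lower (0.135%) or higher (0.0702%), and 1 did at an unadjusted p under 0.05. The erythroid score of the untreated week 14 mice (7.21 to 8.38, mean 7.78) lay below that of the pristane mice of that week (7.90 to 9.45, mean 8.70) and below the means of all other groups (8.27 to 8.90). Their arrays also had a wider signal range (median interquartile range 3.58, against 3.31 in pristane mice of week 14), and the interquartile range correlated over the 88 arrays with Ccl5 at 0.57 and with Gzma at 0.56. With the untreated mice of week 12 as the control, 0 of the 10 genes passed and Ncr1 changed by -0.58 (adjusted p = 0.263). That group had the lowest untreated mean for Ncr1 (3.97, against 4.31 to 4.76 in the others), Klrb1c, Klrk1, Nkg7, Gzma and Eomes. For Ncr1 the untreated mean of week 14 (4.72) was near that of week 8 (4.76). The pristane mean of Ncr1 at week 12 (4.16) lay above those of the other pristane groups (3.21 to 3.39). Whether the week 12 result came from its control or from its treated group was not tested. With the erythroid score as a covariate 0 passed at week 14 (Ncr1 -0.85, adjusted p = 0.0851), and with the interquartile range 2 did, Ncr1 (-1.01, adjusted p = 0.0109) and Nkg7 (-0.81, adjusted p = 0.0370). Centred on T cell markers, which moved the median of all genes at week 14 from 0.12 to 0.51, Ncr1 remained lower (-0.94, adjusted p = 0.0312), Prf1 higher (0.81, adjusted p = 0.0311), and the other genes did not pass. The mean of the 5 weeks kept 6 lower genes with the erythroid score and 8 with the interquartile range. The share of all genes passing with the week 12 control or with these covariates was not counted. A loss of calls particular to these 10 genes can therefore not be told apart from a loss across the array.

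In the spontaneous disease group, the NK and cytotoxic genes did not pass as different from those of untreated mice. Against the mean of the 5 untreated groups, 0 of the 10 genes were lower (0.164% of all genes) and 0 higher (1.25%) by limma, and 2 did pass at an unadjusted p under 0.05. These were Gzmb, 1.52-fold higher (1.04 to 2.23, adjusted p = 0.284), and Ccl5, 1.46-fold higher (1.03 to 2.07, adjusted p = 0.294), whose level in this group was the highest of all 11 (8.48 to 9.73, median 8.88). Ncr1 ran from 3.77 to 5.55 (median 4.30), within the range of the untreated mice, with a change of 0.00 (-0.47 to 0.47 on the log2 scale). With arrays centred on T cell markers, Gzmb (0.92, adjusted p = 0.0374) and Ccl5 (0.86, adjusted p = 0.0153) passed as higher. This centring moved the median over all genes in this comparison from -0.03 to 0.28. Only 0.0391% of the calls over all genes were then lower, so these rises are not particular to the 2 genes. Monocyte markers were higher in 4 of 6 (Csf1r, Ccr2, Nr4a1 and Fn1; median of the list 0.95), neutrophil markers in 2 of 11 and interferon response genes in 2 of 9 in this comparison, and their part in these values was not tested.

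Pristane-treated mice of week 14 were also compared directly with the spontaneous disease group, to set induced against spontaneous disease, and these groups differed in age as well as in treatment. Of the 10 genes 3 were lower (4.42% of all genes) and 0 higher (5.59%) in pristane-treated mice. Ncr1 was 2.05-fold lower (1.35 to 3.12, adjusted p = 0.0180), with 6 of 8 pristane mice below every mouse of the other group, and it alone was over 2-fold lower (0.772% of all genes). Nkg7 was 1.85-fold lower (1.23 to 2.77, adjusted p = 0.0406) and Klrk1 1.79-fold lower (1.25 to 2.58, adjusted p = 0.0280). Gzmb was at like levels in both groups, with a change of -0.11 (-0.82 to 0.59 on the log2 scale). These 3 calls were lost without 1 array in 3, 10 and 7 of 16 refits for Ncr1, Nkg7 and Klrk1 (adjusted p up to 0.0596, 0.167 and 0.102). The count was 0 without pristane replicate 1 or 4 or spontaneous replicate 5 and 1 without pristane replicate 7 or spontaneous replicate 2 or 6, and 0 genes passed with the erythroid score or the interquartile range as a covariate.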

How the data were processed

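Blood RNA was extracted with Trizol, amplified and labelled with the NuGEN Ovation kit and hybridised to Affymetrix HT MG-430 PM arrays, 1 per mouse. The authors deposited 1 table of log2 values made by RMA (background correction, normalization between arrays and probe summary), and the submitters' processing notes also name Partek. The arrays did not share a single distribution, with interquartile ranges from 2.75 to 3.79, so other scalings were tried. Of 45141 rows, 104 controls were left out and 45037 were tested, of which 28898 were annotated to 1 gene, 551 to several and 15588 to none listed. Each gene was read at its brightest probe set.

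The deposited log2 values were fitted without further scaling by limma 3.58.1 in R 4.3.3, with 11 group means over 88 arrays (77 residual and 5.81 prior degrees of freedom) and Benjamini-Hochberg adjustment over all probe sets within each of 12 contrasts and 2 F tests. The code was tested on simulated data. Genes named outside the 10 were, per list, those with the extreme test values in the mean of the weeks, together with those most correlated with the mean of the 10. Marker scores are means of log2 signals over a list. The 10 genes and all lists were chosen with earlier results of these data known. Alternatives were other centrings, covariates, array weights, a replicate block, a filter on dim probe sets, the groups compared alone, the next probe set, the study's added 2-fold criterion and, chosen after seeing the data, leaving out each array in turn.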

Additional observations from a re-analysis of the deposited data

Results flagged for a closer look

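In 5 of 110 groups of 8 mice checked over the 10 genes, 1 mouse stood far from the rest of its group, by a gap to its neighbour over the group's range above Dixon's critical value for groups of 8. Chance alone flags about 1 group in 20. Klrb1c was 6.29 in pristane week 4 replicate 1, against 5.28 to 5.65 in the other mice of the group, and this mouse also had the lowest interferon score of its group. Klrk1 was 4.11 in untreated week 2 replicate 4, against 5.07 to 5.85. Prf1 was 6.72 in pristane week 12 replicate 7, against 5.80 to 6.18. Ccl5 was 9.02 in untreated week 12 replicate 2, against 7.69 to 8.31. Eomes was 5.70 in pristane week 2 replicate 8, against 3.75 to 4.33.

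The effect of pristane differed between weeks for Ncr1 (moderated F in limma, adjusted p = 0.0468) and for Klrb1c (adjusted p = 0.0310), and for Ncr1 between weeks 14 and 12 (adjusted p = 0.0367). The F tests of both genes were lost after median centring (adjusted p = 0.0674 and 0.0604) and T cell centring (0.0885 and 0.204). The week 12 changes of both genes were above 0 (0.20 and 0.29) and those of the other weeks below it.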

How the results depend on the processing

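The counts in this paragraph take genes passing as lower and as higher together. In the mean of the 5 weeks 6 to 9 of the 10 genes passed under every other scaling, covariate, weight, block, filter and probe set choice. After T cell centring these were 5 lower and 2 higher. Of the calls over all genes, 3.97% were then lower, against 51.5% as deposited. In that mean 0 genes were also over 2-fold. At week 2, where 4 passed, 1 did after median centring, 0 after T cell centring and 2 with the erythroid covariate or the 2-fold criterion. At week 4 (1), 0 passed after median or T cell centring or with array weights, and 2 without pristane replicate 1. At week 8 (4), 2 passed with array weights or the 2-fold criterion, and at week 12 (1), 0 with the compared groups alone. At week 14 (5), 2 passed after T cell centring or with the interquartile range covariate, 3 with the compared groups alone or the 2-fold criterion, and 0 with the erythroid covariate or the week 12 control. In spontaneous disease (0), 2 passed as higher after T cell centring, which moved the median over all genes there to 0.28. Against spontaneous disease at week 14 (3), 0 passed after T cell centring, with either covariate or with the compared groups alone, and 1 with array weights or the 2-fold criterion. Between untreated weeks 14 and 12 (0), 2 passed with array weights. For the effect of week 14 minus week 12 (1), 0 passed after quantile or T cell scaling, with either covariate, array weights or the compared groups alone, and 2 with the dim filter. For week 14 minus week 2 (0), 1 passed with the interquartile range. For effects that differ between weeks (2), 0 passed after median or T cell centring and 1 with quantile scaling, the erythroid covariate or array weights. For untreated differences (1), 2 passed after T cell centring or with array weights and 0 with either covariate. Prf1 reversed at its other probe set, to -0.67 at week 14 and -0.38 in the mean. The share of all genes passing under the covariates, weights, block, filter or other control was not counted. The causes were not tested.

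Leaving out 1 array at a time gave 1 to 4 genes at week 2, 0 to 2 at week 4, 2 to 4 at week 8, 0 to 1 at week 12, 3 to 7 at week 14 and 0 to 4 against spontaneous disease. Replicate numbers did not pair the mice: 11 of 40 same-numbered pairs had a correlation of deviations over 0.1 (median 0.0132), and 8 correlated best with their own number. The numbers did go with the signal range of the arrays. Its median interquartile range was 3.44 in arrays numbered 1 (3.05 to 3.79) and 3.09 in those numbered 8 (2.75 to 3.30). With the replicate block, 2 genes passed for week 14 minus week 12 (Ncr1 and Nkg7), 4 against spontaneous disease, and the other counts were equal to those without it. The dimness of Ncr1 and the 8 arrays per group limit all values.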
